A study of Mus musculus with 8 samples.

Results

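Collagens are secreted matrix proteins made of chains that wind around each other into a helix, and each chain has its own gene. Fibrillar collagens form the rope-like fibers of the interstitium, which in the embryonic lung are laid down mainly by mesenchymal cells, whereas type IV collagen forms the sheet on which the epithelium and the vessels rest. Other classes coat fibrils, link cells to the matrix or sit in the cell membrane. As lung buds branch, the matrix at the tips and along the stalks is remodeled, and this takes place next to epithelium that depends on Fgf10 and other ligands of Fgfr2b.

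The collagen chain genes were taken as every gene symbol of the platform annotation made of Col, a number, a and a number. A total of 44 genes met this rule among 24583 genes on the array, and they were covered by 109 spots. The brightest spot by mean signal stood for its gene, and values are log2 signals, so that a difference of 1 is a 2-fold difference. The 44 genes comprised 11 fibrillar, 9 basement membrane, 6 beaded filament, 3 short-chain network, 9 fibril-associated and 4 transmembrane collagens and 2 others (Col26a1 and Col28a1). Of these, 32 had a mean signal above 5.79, the median of all genes, and 12 lay at or below it. Spots of different genes differ in how brightly they bind, so no gene's level was set against that of another gene.

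The arrays held RNA of the left lung lobe of E14.5 mouse embryos, taken 9 h after the pregnant female had received doxycycline by intraperitoneal injection at 0.0015 mg per g of body weight. The 4 arrays titled experimental stood for Rosa26 rtTA/rtTA; Tg(tet(o)sFgfr2b)/+ embryos, in which doxycycline induces a soluble Fgfr2b that is secreted and captures Fgfr2b ligands. The 4 arrays titled control stood for Rosa26 rtTA/rtTA; +/+ littermates, which carried the same transactivator and received the same drug. Because the transactivator is driven from a locus active in most cells and the soluble receptor leaves the cells that make it, the model is not confined to 1 cell type. The sources used here did not give litter or slide, and p-values measure only the spread between these 8 arrays, whose number limits the precision of every comparison.

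Etv5, a transcription factor gene induced by Fgf10 in the distal epithelium, followed the number in the title and not the labelled group. It had 10.42, 10.43, 13.11 and 13.26 in experimental 1 to 4, against 10.09, 10.57, 13.18 and 13.26 in control 1 to 4. Its difference was -2.83 ± 0.12 (SE) between numbers 1 and 2 and numbers 3 and 4, and 0.03 ± 0.98 (SE) between the labels. Whether each array's title matches the embryos it came from, or some titles were exchanged, was not tested, so every difference by label below is one between titles and may not be one between genotypes. The samples are therefore called arrays labelled experimental or control, and the collagens are described both by label and by title number, as numbers 1 and 2 minus numbers 3 and 4. The split by number is not named as a factor of the study's design. It was chosen with earlier results of these arrays known, so its tests say only whether these sets of arrays differ. All 5 lung markers (Nkx2-1, Sftpc, Foxf1, Tbx4, Tbx5) were above the median of all genes on average. One array, control 1, stood apart in genes of basal and squamous epithelium, and its values are given below beside the collagens that they touch.

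Between the labelled groups, the collagens were close to level. In limma's fit over all genes, 0 of 44 passed at an adjusted p under 0.05, beside a background of 0% of all genes, and 1 of 44 had an unadjusted p under 0.05, beside 3.56%. An ordinary unpaired t-test, without limma's moderation, gave the same counts, 0 after adjustment, beside 0%, and 1 before it, beside 3.21%. The differences, labelled experimental minus control, ran between -1.04 and 0.76 with a median of 0.01, and all genes had a median of 0.00. In sign, 28 collagens lay above 0 and 16 below it. For the chains of the main interstitial and basement membrane networks the intervals were narrow: the difference was 0.08 for Col1a1 (95% confidence interval -0.17 to 0.34), 0.01 for Col3a1 (-0.24 to 0.26), 0.07 for Col4a1 (-0.15 to 0.29) and 0.04 for Col6a1 (-0.28 to 0.37).

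The collagen with the smallest p between the labels was Col15a1, which encodes a chain at the border of basement membrane and interstitium. It had 5.13, 5.37, 5.51 and 5.96 in experimental 1 to 4, against 4.44, 4.97, 4.93 and 4.57 in control 1 to 4. The groups did not overlap, which held for 1 of 44 collagens and for 1.9% of all genes. The difference was 0.76 ± 0.20 (SE; interval 0.30 to 1.23), and it did not pass in limma (adjusted p = 0.9998). The brightest Col15a1 spot was itself dim, with a mean of 5.11, and the other, at a mean of 4.05, ran the opposite way with a difference of -0.54. With the mean of both spots the difference was 0.11.

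The 5 collagens next in p between the labels were all far from the threshold. Col24a1, a fibrillar chain, had 4.44, 5.37, 4.85 and 4.10 in the arrays labelled experimental, against 3.78, 4.75, 3.54 and 4.56 in those labelled control. Col4a4, a chain of the specialized type IV network, had 7.96, 7.88, 8.12 and 8.10 in the arrays labelled experimental, against 7.72, 7.49, 8.10 and 7.87 in those labelled control. In both genes the groups overlapped, with differences of 0.53 ± 0.35 and 0.22 ± 0.14 (SE). Col6a5 (-1.04 ± 0.69) rested on control 1, as described below, while Col28a1 (-0.35 ± 0.24) and Col10a1 (0.43 ± 0.35) lay near the floor of the arrays, at means of 3.49 and 3.52. Of 6 markers of cardiac muscle, 0 passed by label in limma, beside 0% of all genes, and 4 did not overlap, beside 1.9%. The list had 5 genes lower in sign and 1 higher (Nppa, 0.37 ± 0.25), 5 of the 6 were above the median of all genes, and its mean lay between 9.44 and 9.85 in the arrays labelled experimental, against 9.87 to 10.1 in those labelled control. Myh6, a cardiac myosin, had 10.96 to 11.34 in the arrays labelled experimental, against 11.64 to 11.74 in those labelled control (-0.52 ± 0.11, adjusted p = 0.9998 in limma). The part of such tissue in the collagen values was not tested.

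**Figure D1:**
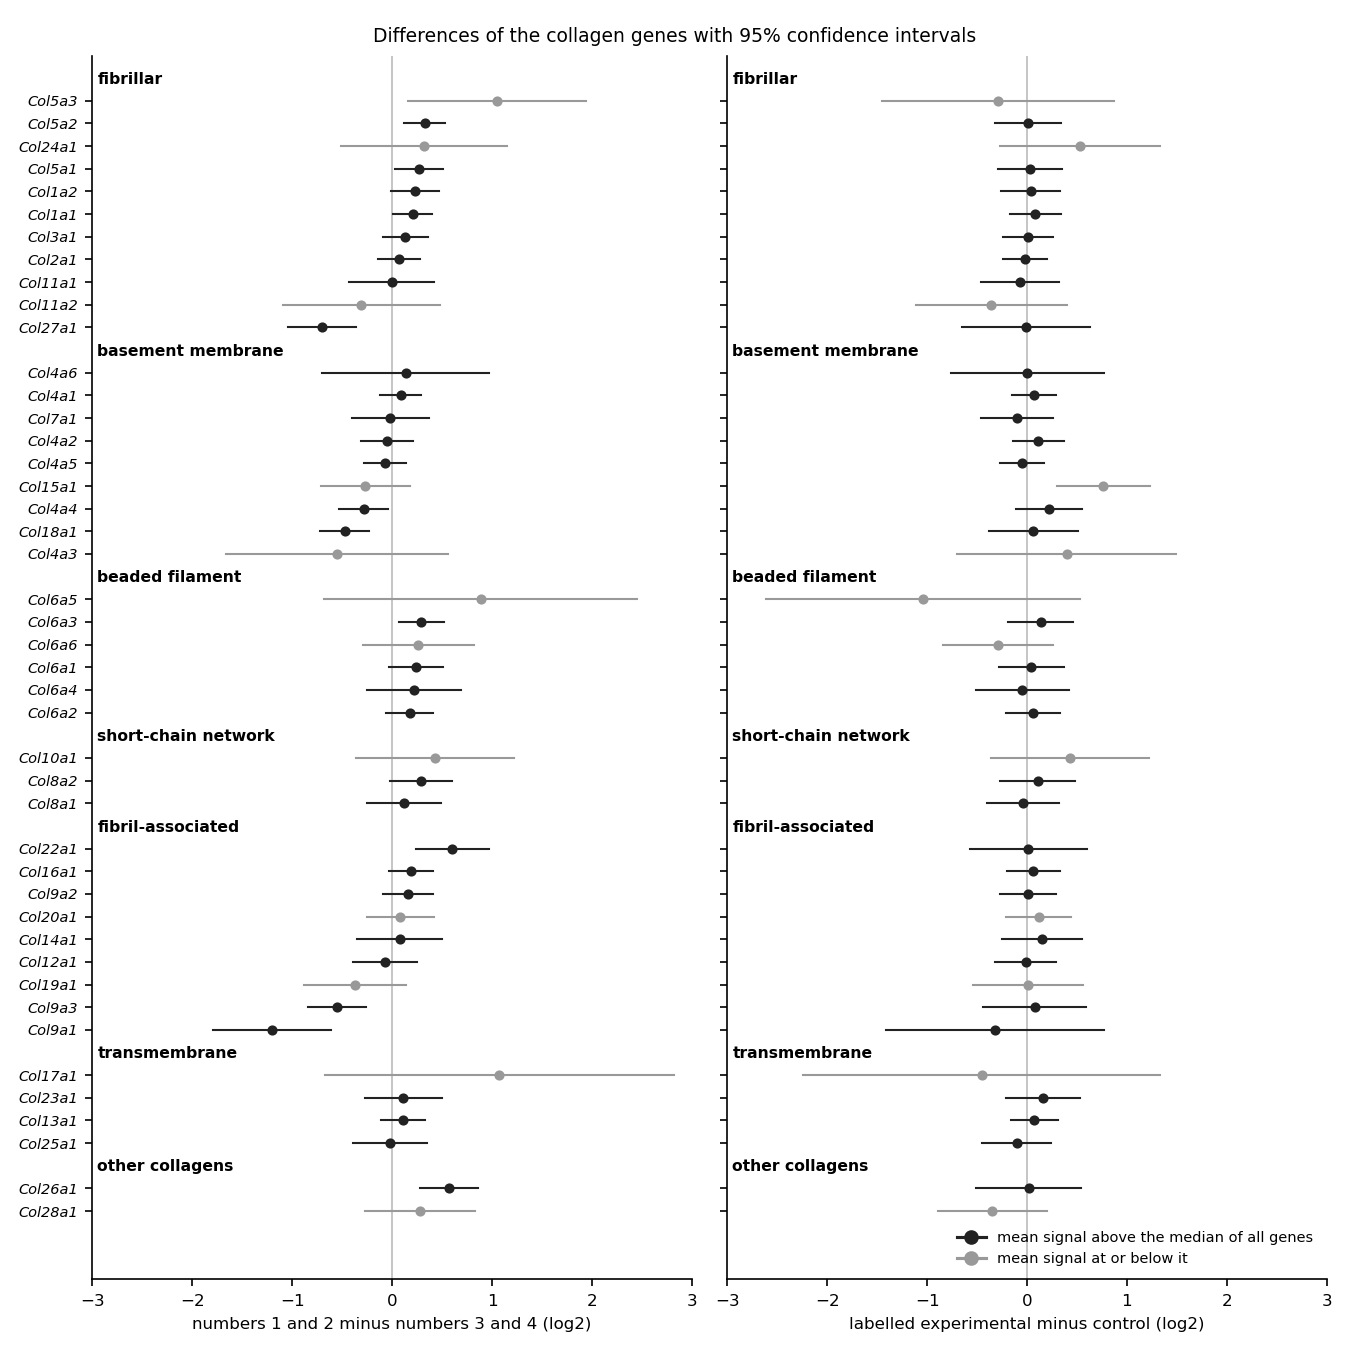
Difference of each of 44 collagen genes in log2 units (points) with its 95% confidence interval (bars), grouped by collagen class, for title numbers 1 and 2 minus 3 and 4 (left) and for arrays labelled experimental minus control (right). Gray marks genes with a mean signal at or below the median of all genes. Col9a1 (-1.20) and Col27a1 (-0.70) lie farthest to the left by number among the brighter genes. By label, in the unpaired fit shown, only the interval of Col15a1 leaves 0 out.

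By title number the collagens spread further. In numbers 1 and 2, 29 collagens were higher in sign and 15 lower than in numbers 3 and 4, with a median of 0.13, against a median of 0.00 over all genes. In limma's fit 0 of 44 passed at an adjusted p under 0.05, where 0.753% of all genes did, and 12 had an unadjusted p under 0.05, where 13.5% did. Those calls depended on the variance model and the filter. With an intensity trend and robust moderation 10 collagens passed, beside 4.71% of all genes, with 7 higher (beside 2.18%) and 3 lower (beside 2.53%). All 10 lay above the median signal, where 496 of 12291 genes passed as higher and 569 as lower. In a fit of genes above the median signal only, 7 passed, beside 6.87%. The ordinary t-test, run by number without the label as covariate, called 1 after adjustment, beside 1.33%, and 14 before it, beside 14.9%. Whether the difference between the numbers itself differed between the labels was tested by an interaction term, for which 0 of 44 collagens had an unadjusted p under 0.05, beside 4.8% of all genes, and 0 passed after adjustment in limma, beside 0%.

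In 11 of 44 collagens the values of numbers 1 and 2 did not overlap with those of numbers 3 and 4, a share of 25% beside 10.6% of all genes. Brighter genes separated more often, so the closer background is that of genes above the median signal, where 17.3% did not overlap, beside 11 of 32 collagens (34.4%). Of the 11, 7 were higher in numbers 1 and 2 (Col1a1, Col5a1, Col5a2, Col6a1, Col6a3, Col22a1 and Col26a1), in a direction that held for 5.17% of all genes. The other 4 were lower (Col9a1, Col9a3, Col18a1 and Col27a1), which held for 5.39%. All 11 lay above the median signal, where 1038 of 12291 genes were apart as higher and 1092 as lower. In these whole-lobe samples, fewer cells of a type and less RNA per cell cannot be told apart.

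**Figure D2:**
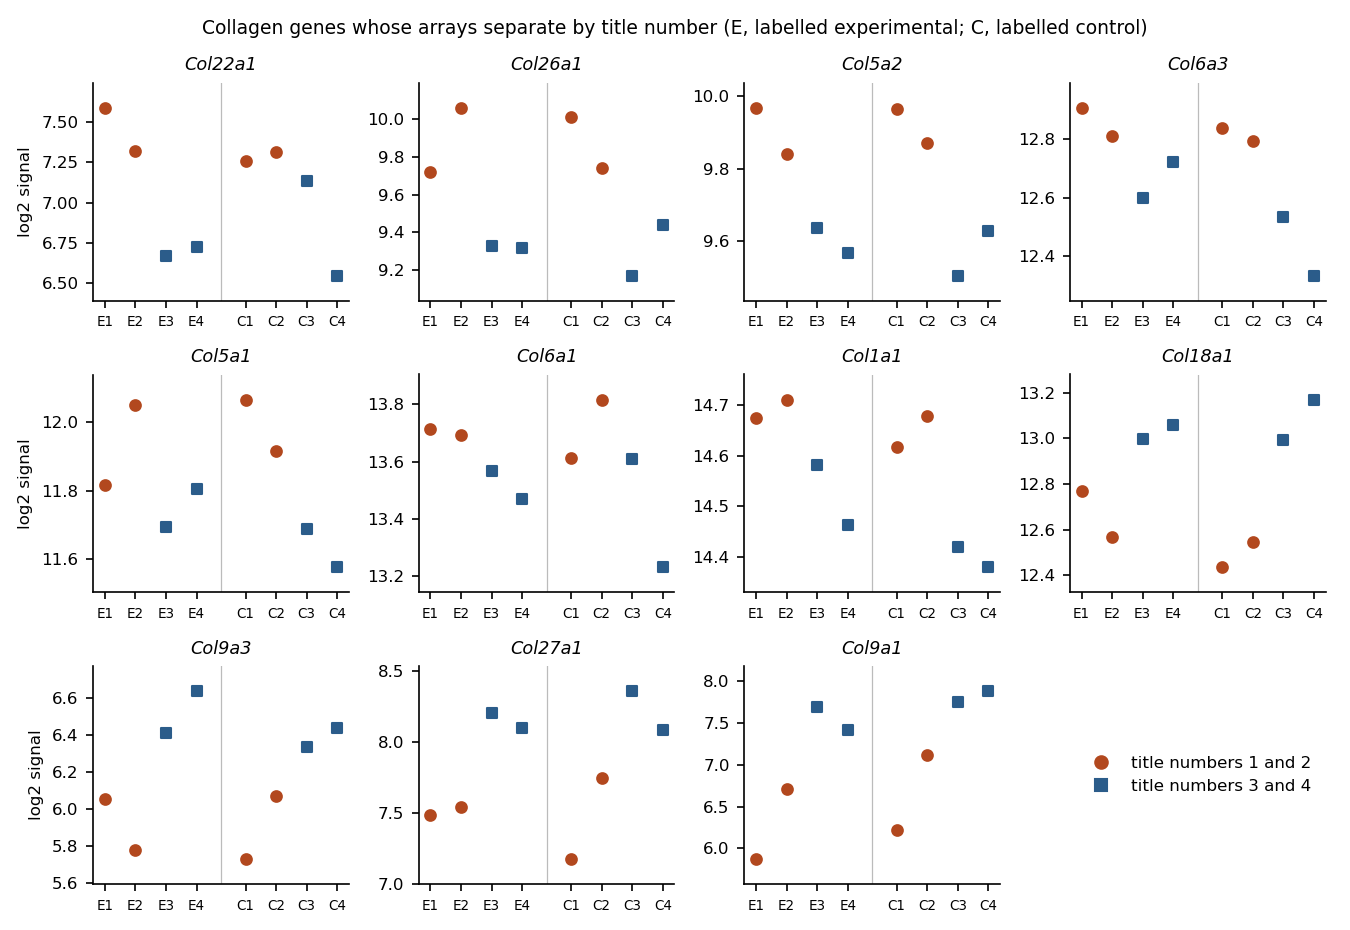
Log2 signal on each of 8 arrays (points) of the 11 collagen genes whose arrays of title numbers 1 and 2 (circles) and 3 and 4 (squares) do not overlap, with each axis on its own scale. Col22a1 to Col1a1 are higher and Col18a1 to Col9a1 lower in numbers 1 and 2, in both the arrays labelled experimental (E) and those labelled control (C).

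Among the fibrillar collagens, 8 of 11 were higher in sign in numbers 1 and 2 and 3 were lower, with a median of 0.21, and 4 of 11 (36.4%) did not overlap, beside 10.6% of all genes and 17.3% of those above the median signal. Values are given for numbers 1 and 2 in the order experimental 1, experimental 2, control 1 and control 2, and for numbers 3 and 4 in the same order. Col1a1, a chain of type I collagen, had 14.67, 14.71, 14.62 and 14.68 in numbers 1 and 2, against 14.58, 14.46, 14.42 and 14.38 in numbers 3 and 4. Its partner chain Col1a2 had 15.57, 15.73, 15.74 and 15.53 in numbers 1 and 2, against 15.55, 15.33, 15.42 and 15.34 in numbers 3 and 4. All 4 arrays of numbers 1 and 2 were above all others for Col1a1, while Col1a2 overlapped through experimental 3 and control 2 and lay close to the highest value of 15.999. The differences were 0.21 ± 0.08 and 0.23 ± 0.10 (SE), and in limma's fit over all genes neither passed (adjusted p = 0.337 and 0.384). With the intensity trend both passed (adjusted p = 0.0208 and 0.0205).

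Type V collagen, which joins type I fibrils and limits their width, had differences of the same sign. Col5a2 had 9.97, 9.84, 9.96 and 9.87 in numbers 1 and 2, against 9.64, 9.57, 9.50 and 9.63 in numbers 3 and 4. Col5a1 had 11.81, 12.05, 12.06 and 11.92 in numbers 1 and 2, against 11.69, 11.81, 11.69 and 11.58 in numbers 3 and 4. Both sets of arrays were apart, by a small step in Col5a1, where experimental 1 and experimental 4 nearly met. The differences were 0.33 ± 0.09 and 0.27 ± 0.10 (SE), or folds of 1.26 and 1.21, with adjusted p = 0.178 and 0.324 in limma. Col5a2 was the only collagen to pass in the ordinary t-test after adjustment (adjusted p = 0.0370). The second spot of Col5a2 was dim (mean 5.48), differed by -0.05 and overlapped. The dim remaining chain, Col5a3, had 4.09, 5.60, 5.85 and 5.46 in numbers 1 and 2, against 4.17, 4.46, 3.77 and 4.41 in numbers 3 and 4, and overlapped through experimental 1 (difference 1.05 ± 0.38).

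Col27a1, a fibrillar chain best known from cartilage, had the opposite sign and had the smallest p of all collagens. It had 7.48, 7.54, 7.17 and 7.74 in numbers 1 and 2, against 8.20, 8.10, 8.36 and 8.08 in numbers 3 and 4. Every array of numbers 1 and 2 was below every array of numbers 3 and 4, with a difference of -0.64 within the arrays labelled experimental and of -0.76 within those labelled control. Pooled, it was -0.70 ± 0.14 (SE; interval -1.04 to -0.36), which missed the threshold in limma (adjusted p = 0.102) and passed with the intensity trend (0.00300) and above the median signal (0.0172). Its second, dimmer spot differed by -0.33 and overlapped. Col3a1, the chain of type III collagen, and Col2a1 and Col11a1, chains of cartilage fibrils, differed by 0.13 (-0.09 to 0.36), 0.07 (-0.14 to 0.28) and 0.00 (-0.43 to 0.42). Col11a2 and Col24a1 lay below the median of all genes and had intervals from -1.10 to 0.48 and from -0.51 to 1.15.

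The array carried 22 spots of Col1a1, which repeat the measurement of this gene within the same arrays. A total of 21 were bright, with means between 13.6 and 14.6, and in all 21 the arrays of numbers 1 and 2 lay above those of numbers 3 and 4. Their differences ran between 0.21 and 0.34 with a median of 0.28, so the brightest spot, used for the gene, had the smallest. By label the same 21 spots differed by -0.0027 to 0.15. These spots share the RNA of each array and are not replicates. Over all collagens, 30 genes had several spots, and 52 of their 65 further spots had the same sign by number as the brightest spot of their gene. This held for 33 of 34 spots above the median signal and for 19 of 31 at or below it.

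**Figure D3:**
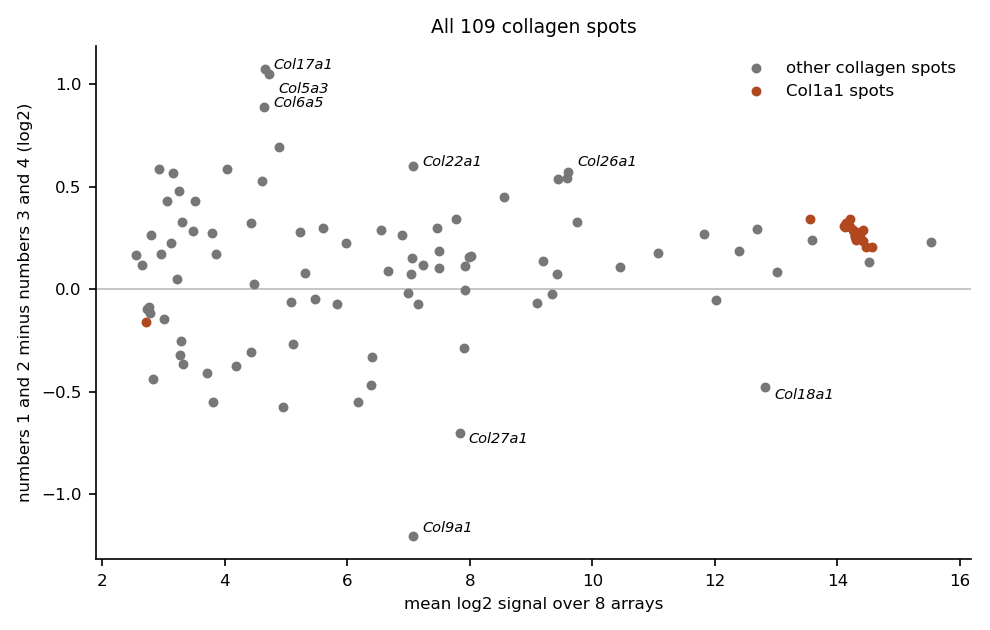
Difference between title numbers 1 and 2 and numbers 3 and 4 (vertical axis, log2 units) of each of 109 collagen spots against its mean log2 signal over 8 arrays (horizontal axis). The 21 bright Col1a1 spots cluster between 0.21 and 0.34, while dim spots scatter on both sides of 0.

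Promoter sequence is shown for members that separated by number, since Col27a1 was lower, and Col5a1 and Col6a3 higher, in every array of numbers 1 and 2. RefSeq windows (GRCm38.p6) were held for 35 of 44 collagen genes, as 38 windows, 3 genes having 2 each, and the 250 bases before the start were searched on both strands for GGGCGG (the GC box), for CCAAT (the box of that name), for TATAAA (the TATA box) and for CCGGAAG (a site of Ets factors, the family of Etv5). No match of one counted as a match of another. Capitals mark matches, and the windows lie at chr4:63215162-63215411 (plus strand), chr2:27886175-27886424 (plus strand) and chr1:90843972-90844221 (minus strand).
Col27a1: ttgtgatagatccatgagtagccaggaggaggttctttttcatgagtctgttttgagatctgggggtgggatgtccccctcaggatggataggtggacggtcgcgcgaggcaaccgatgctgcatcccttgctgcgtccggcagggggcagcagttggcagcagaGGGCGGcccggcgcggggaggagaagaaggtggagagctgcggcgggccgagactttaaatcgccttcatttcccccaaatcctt
Col5a1: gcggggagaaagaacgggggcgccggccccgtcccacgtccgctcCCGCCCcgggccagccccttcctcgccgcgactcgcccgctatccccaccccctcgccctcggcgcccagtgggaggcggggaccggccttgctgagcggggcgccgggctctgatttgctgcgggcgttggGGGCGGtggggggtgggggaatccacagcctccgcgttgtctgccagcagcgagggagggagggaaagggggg
Col6a3: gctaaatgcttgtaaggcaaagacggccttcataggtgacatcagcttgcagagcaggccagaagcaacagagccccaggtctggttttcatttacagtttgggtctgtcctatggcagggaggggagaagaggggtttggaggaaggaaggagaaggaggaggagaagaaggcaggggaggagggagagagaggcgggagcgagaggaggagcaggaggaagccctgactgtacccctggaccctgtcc
The GC box stood in Col27a1 and Col5a1 and no motif in Col6a3. Over the 38 windows the GC box occurred in 22 (57.9%), against 32.7% of 32851 windows of all genes, the CCAAT box in 13 (34.2%, against 33.8%), the TATA box in 5 (13.2%, against 12.4%) and the Ets site in 0 (against 6.91%). The median GC content was 59.0% in collagen windows and 52.4% in all windows, which bears on a motif made of G and C. Both windows of Col6a2 overlap each other, so the 38 windows are not all separate sequence. Whether the 0 windows with an Ets site differ from the share in all windows was not tested. A match, or the lack of one, describes these letters alone.

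Of the basement membrane collagens, 2 of 9 were higher in sign in numbers 1 and 2 and 7 lower, with a median of -0.07. Of the 9, 1 (11.1%) did not overlap, a share near the 10.6% of all genes and below the 17.3% of those above the median signal. Col4a1 and Col4a2, the chains of the common type IV network, had 13.149, 13.043, 13.0005 and 13.040 (Col4a1) and 11.995, 12.07, 11.80 and 12.08 (Col4a2) in numbers 1 and 2. In numbers 3 and 4, Col4a1 had 12.944, 13.067, 13.0005 and 12.876, and Col4a2 had 12.12, 12.09, 12.13 and 11.82. The values overlapped in both genes, with differences of 0.09 (interval -0.12 to 0.29) and -0.05 (-0.31 to 0.21). These genes lie head to head, and their RefSeq starts on chr8:11312801-11312830 (plus strand) are shown because both lie within these 30 bases. Capitals mark the 22 bases from the start of Col4a2 to that of Col4a1, which is read from the opposite strand.
Col4a1 and Col4a2: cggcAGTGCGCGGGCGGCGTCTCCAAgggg
Their 300-base windows share 78 bases.

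Col18a1, the heparan sulfate bearing collagen from which endostatin is released, was the 1 basement membrane member without overlap. It had 12.77, 12.57, 12.44 and 12.54 in numbers 1 and 2, against 12.997, 13.06, 12.995 and 13.17 in numbers 3 and 4. All arrays of numbers 1 and 2 were below the others, with differences of -0.36 within the arrays labelled experimental and -0.59 within those labelled control. The difference was -0.48 ± 0.10 (SE; interval -0.72 to -0.23), a fold of 1.39, and did not pass in limma (adjusted p = 0.117). With the intensity trend its adjusted p was 8.87e-05, the smallest of the collagens under that setting.

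The other type IV chains differed in their spread. Col4a4 had 7.96, 7.88, 7.72 and 7.49 in numbers 1 and 2, against 8.12, 8.10, 8.10 and 7.87 in numbers 3 and 4, which overlapped through control 4 (difference -0.28, interval -0.53 to -0.04; adjusted p = 0.310 in limma). Col4a3, its partner gene, lay near the floor at 2.82 to 4.34 in numbers 1 and 2, against 3.20 to 5.15 in numbers 3 and 4. Col4a5 was level (-0.07, interval -0.28 to 0.15), whereas Col4a6 ranged over more than 1 log2 unit within each set of numbers, with 9.76, 8.54, 9.48 and 9.26 in numbers 1 and 2, against 9.52, 8.95, 9.60 and 8.42 in numbers 3 and 4. Col7a1, of the anchoring fibrils under stratified epithelium, differed by -0.02 (-0.40 to 0.37), and Col15a1 by -0.27 (-0.71 to 0.18). Of 11 non-collagen partners of the basement membrane, all above the median signal, 0 passed by number in limma, beside 0.753% of all genes. An unadjusted p under 0.05 in limma held for 1 (Nid2), beside 13.5%. The 1 without overlap was Frem1 (9.09%), beside 10.6% of all genes and 17.3% of those above the median signal.

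**Figure D4:**
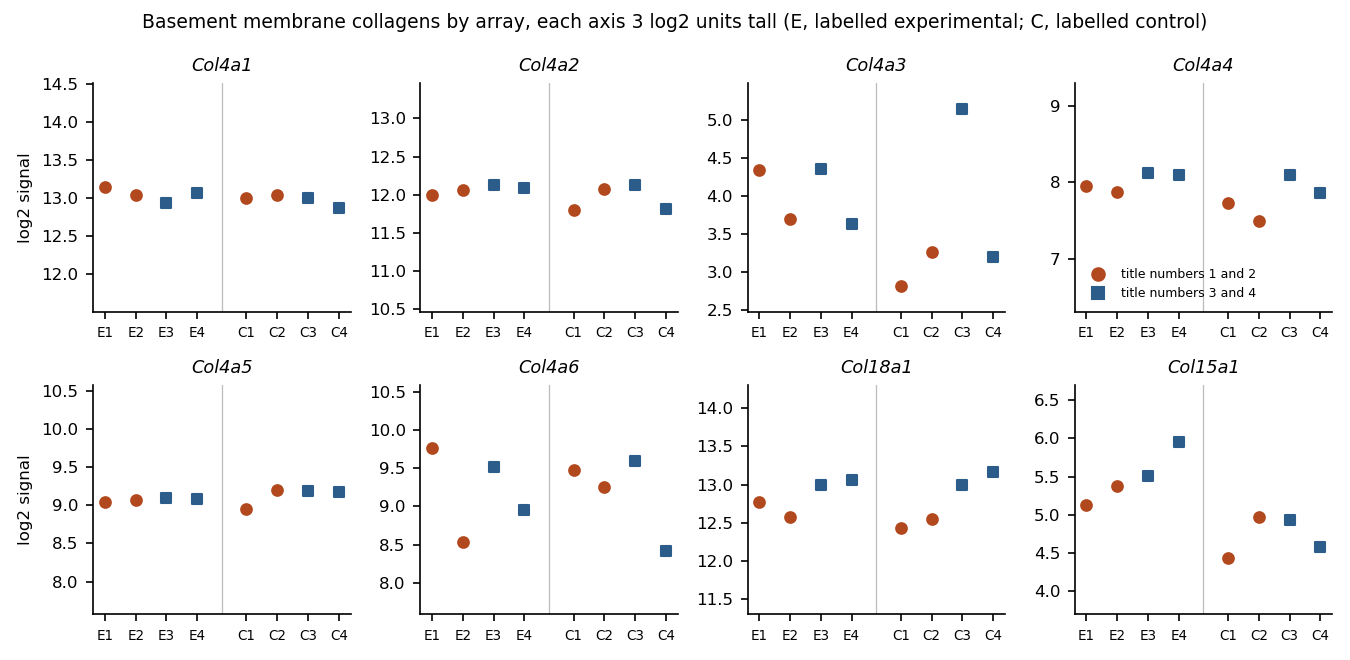
Log2 signal on each of 8 arrays (points) of 8 of the 9 basement membrane collagens, in arrays labelled experimental (E) and control (C), with circles for title numbers 1 and 2 and squares for 3 and 4. Every axis spans 3 log2 units: Col18a1 is lower in numbers 1 and 2, Col15a1 is higher in E than in C, and Col4a1 stays between 12.88 and 13.15.

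The 6 beaded filament collagens, which form type VI microfilaments around mesenchymal cells, were all higher in sign in numbers 1 and 2, with a median of 0.25. The size of the difference in Col6a5 rested on control 1, as described below. Of the 6, 2 (33.3%) did not overlap, beside 10.6% of all genes and 17.3% of those above the median signal. Col6a3 had 12.91, 12.81, 12.84 and 12.79 in numbers 1 and 2, against 12.60, 12.72, 12.53 and 12.33 in numbers 3 and 4. Col6a1 had 13.715, 13.694, 13.612 and 13.817 in numbers 1 and 2, against 13.568, 13.469, 13.611 and 13.230 in numbers 3 and 4. Both genes separated, although in Col6a1 control 1 and control 3 differed only in the third decimal. Col6a2 had 11.21, 11.09, 11.26 and 11.04 in numbers 1 and 2, against 10.93, 11.13, 10.97 and 10.88 in numbers 3 and 4, and overlapped through experimental 4. The differences were 0.29 ± 0.10 for Col6a3, 0.24 ± 0.11 for Col6a1 and 0.18 ± 0.10 for Col6a2 (SE), with adjusted p = 0.267, 0.424 and 0.519 in limma, and with the intensity trend only Col6a3 passed among them (0.0105). Col6a4 and Col6a6 overlapped, at means of 5.98 and 2.79.

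Fibril-associated collagens, which decorate the surface of fibrils, went both ways, with 5 of 9 higher and 4 lower. Of the 9, 3 (33.3%) did not overlap, beside 10.6% of all genes and 17.3% of those above the median signal. The widest difference of a brighter collagen was that of Col9a1, a chain of the type IX collagen of cartilage. It had 5.88, 6.71, 6.21 and 7.12 in numbers 1 and 2, against 7.69, 7.41, 7.75 and 7.88 in numbers 3 and 4. Col9a3 had 6.06, 5.78, 5.73 and 6.07 in numbers 1 and 2, against 6.41, 6.64, 6.34 and 6.44 in numbers 3 and 4. Both were lower in every array of numbers 1 and 2, with differences of -1.20 ± 0.25 and -0.55 ± 0.12 (SE), or folds of 2.30 and 1.46, with adjusted p = 0.105 and 0.124 in limma. The remaining chain of the trimer, Col9a2, had 8.04, 8.15, 7.90 and 8.28 in numbers 1 and 2, against 7.91, 7.98, 7.90 and 7.95 in numbers 3 and 4, a difference of 0.16 in the other direction (interval -0.09 to 0.41). The second spot of Col9a1 was dim (mean 3.85) and differed by 0.17, and that of Col9a3 differed by -0.57.

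Since Col9a1, Col9a3 and Col27a1 are known from cartilage, the cartilage markers were read beside them. Of 13 markers, 2 passed in limma as lower in numbers 1 and 2, beside 0.753% of all genes in either direction: Matn4, a matrilin (-1.20 ± 0.18, adjusted p = 0.0395), and Cnmd, which encodes chondromodulin (-1.76 ± 0.18, adjusted p = 0.0117). In sign, 5 of the 13 were higher and 8 lower in numbers 1 and 2. Without overlap were 2 of 13 (15.4%), beside 10.6% of all genes and 17.3% of those above the median signal. The list's mean was between 5.09 and 5.46 in numbers 1 and 2, against 5.53 to 5.74 in numbers 3 and 4, and 4 of its 13 genes were above the median of all genes. Among the 9 markers at or below the median of all genes, Acan had 2.83 to 4.13, Comp 2.82 to 4.08 and Matn1 3.10 to 4.46 over the 8 arrays. Col2a1, the main collagen of cartilage, had 9.43, 9.48, 9.54 and 9.42 in numbers 1 and 2, against 9.39, 9.38, 9.30 and 9.51 in numbers 3 and 4, and overlapped. The part of cartilage in the values of Col9a1, Col9a3 and Col27a1 was not tested.

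Col22a1, found at tissue junctions such as that of muscle and tendon, was higher in numbers 1 and 2. It had 7.59, 7.32, 7.26 and 7.32 in numbers 1 and 2, against 6.67, 6.73, 7.13 and 6.55 in numbers 3 and 4, and was apart by the gap between control 1 and control 3. The difference was 0.60 ± 0.15 (SE), with adjusted p = 0.169 in limma. The second spot of Col22a1 was dim (mean 3.72) and ran the opposite way, with a difference of -0.41. Col16a1 had 12.60, 12.49, 12.51 and 12.34 in numbers 1 and 2, against 12.22, 12.38, 12.27 and 12.32 in numbers 3 and 4, and overlapped (0.19 ± 0.09). Col12a1 and Col14a1, which are common on type I fibrils, differed by -0.07 (interval -0.39 to 0.25) and 0.08 (-0.35 to 0.50), and Col19a1 and Col20a1 were dim.

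Col26a1, which belongs to none of the classes above, had 9.72, 10.06, 10.01 and 9.74 in numbers 1 and 2, against 9.33, 9.32, 9.17 and 9.44 in numbers 3 and 4. Every array of numbers 1 and 2 was higher, with nearly the same difference, 0.57, within either label. The gene differed by 0.57 ± 0.12 (SE; interval 0.28 to 0.86), a fold of 1.48, with an adjusted p = 0.110 in limma and 0.000755 with the intensity trend. Its 3 spots differed by 0.57, 0.54 and 0.53. Col28a1 was near the floor.

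The short-chain and transmembrane collagens gave 0 of 7 genes without overlap, beside 10.6% of all genes. Col8a2, a chain of hexagonal networks, had 6.64, 6.79, 6.56 and 6.80 in numbers 1 and 2, against 6.30, 6.70, 6.46 and 6.18 in numbers 3 and 4 (difference 0.29 ± 0.13). Col8a1, its partner, differed by 0.12 ± 0.16. Col10a1, the collagen of hypertrophic cartilage, had 4.52, 3.70, 3.49 and 3.21 in numbers 1 and 2, against 2.97, 3.73, 2.68 and 3.82 in numbers 3 and 4, and overlapped (0.43 ± 0.34). Of the transmembrane collagens, Col13a1 had 10.51, 10.56, 10.40 and 10.53 in numbers 1 and 2, against 10.41, 10.45, 10.47 and 10.23 in numbers 3 and 4. Col23a1 and Col25a1 differed by 0.11 (interval -0.27 to 0.50) and -0.02 (-0.39 to 0.35), and Col25a1 had the smallest interaction p of the collagens (0.0655 unadjusted in limma's fit over all genes; 0.26 within the arrays labelled experimental and -0.31 within those labelled control).

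Col17a1, the collagen of hemidesmosomes in basal epithelial cells, stood out in control 1. It had 5.29, 4.41, 4.24 and 3.77 in experimental 1 to 4, against 7.43, 3.63, 4.28 and 4.17 in control 1 to 4. Col6a5, a beaded filament chain, had 4.01, 4.17, 4.26 and 4.06 in experimental 1 to 4, against 7.43, 4.74, 4.89 and 3.61 in control 1 to 4. In both, control 1 was above all 7 other arrays by more than 2 log2 units, which decided their differences: without it, Col17a1 differed by 0.27 by number and 0.40 by label, and Col6a5 by 0.16 by number and -0.29 by label. Of 11 markers of basal and squamous epithelium, 8 were highest in control 1, and 5 of the 11 were above the median of all genes. Krt5, a keratin of basal cells, had 8.66 in control 1 and 2.73 to 4.04 elsewhere, and Krt15 had 11.34 in control 1 and 7.54 to 8.93 elsewhere. The list's mean was 5.69 to 5.79 in the arrays labelled experimental, against 7.58 in control 1 and 5.72 to 5.98 in control 2 to 4. Trp63, a transcription factor gene of basal cells, was level at 9.45 to 10.15, and Col7a1, known from the same junction, had 7.28 in control 1 and 6.65 to 7.23 elsewhere. The part of such cells in these values was not tested. Control 1 was the highest array for 11 of 44 collagens, beside 15.9% of all genes.

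**Figure D5:**
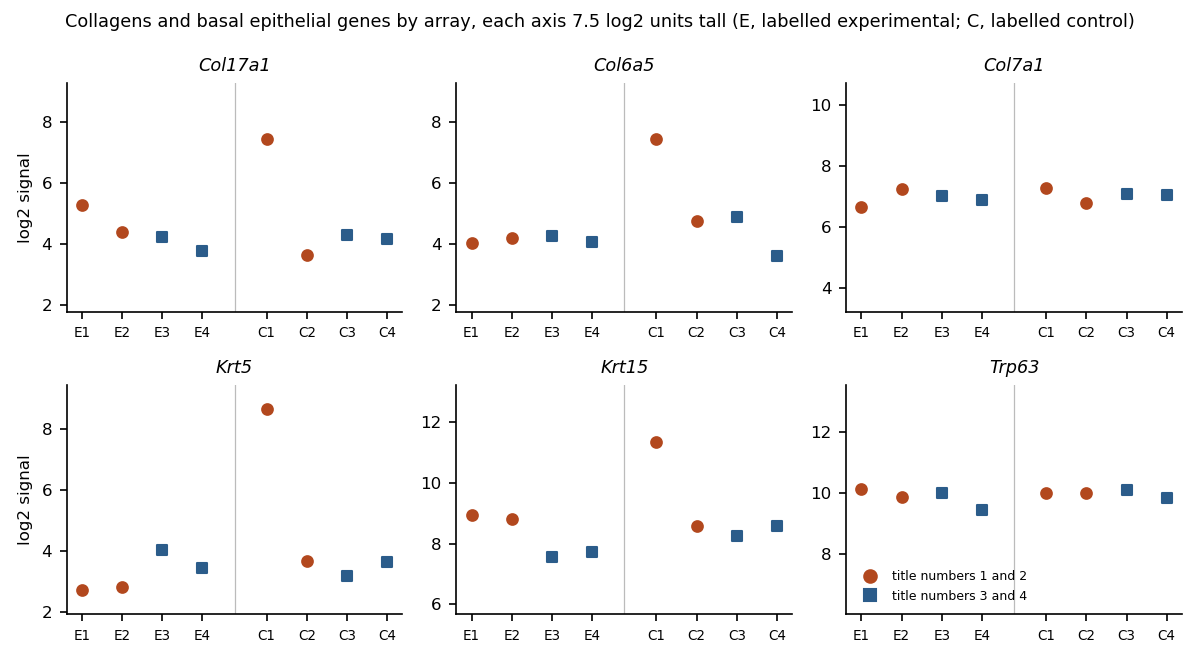
Log2 signal on each of 8 arrays (points) of 3 collagens (top row) and 3 genes of basal epithelium (bottom row), in arrays labelled experimental (E) and control (C), every axis spanning the same range. Control 1 (C1) stands above the other arrays in Col17a1, Col6a5, Krt5 and Krt15, but not clearly in Col7a1 or Trp63.

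Genes that make, process and degrade collagen were read in the same fit. Their lists were chosen by function, with earlier results of these data known. Of the listed genes 75 were measured, with 50 higher in sign in numbers 1 and 2 and 25 lower. In limma 1 of 75 passed, beside 0.753% of all genes, and 20 (26.7%) did not overlap, beside 10.6% of all genes and 17.3% of those above the median signal, where 60 of the 75 lay. The one that passed was Pcsk6, a proprotein convertase. The paper names this gene among those downregulated in its experimental lungs, so the call is not independent of earlier results. It had 8.70, 8.51, 8.55 and 9.60 in numbers 1 and 2, against 11.38, 11.08, 11.49 and 11.32 in numbers 3 and 4, with all 4 arrays far below the others. The difference was -2.48 ± 0.23 (SE; adjusted p = 0.00848 in limma), and without control 3 the count of passing genes was 0 of 75. With the intensity trend 12 of the 75 passed, beside 4.71% of all genes, with 10 higher (beside 2.18%) and 2 lower (beside 2.53%) in numbers 1 and 2. Among 12291 genes above the median signal, 496 passed as higher and 569 as lower.

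Of 14 genes that trim procollagen or crosslink fibrils, 6 (42.9%) did not overlap, beside 10.6% of all genes and 17.3% of those above the median signal, where 10 of the 14 lay. Of the 6, 5 were higher in numbers 1 and 2, which held for 5.17% of all genes and for 1038 of 12291 genes above the median signal. Adamts2, which removes the amino-terminal propeptide, had 10.33, 10.24, 10.46 and 10.36 in numbers 1 and 2, against 9.98, 9.82, 9.81 and 9.72 in numbers 3 and 4. Lox, which oxidizes lysines for crosslinks, had 12.829, 12.552, 12.829 and 12.464 in numbers 1 and 2, against 12.043, 12.441, 12.190 and 12.0012 in numbers 3 and 4. Both genes separated, at 0.52 ± 0.10 and 0.50 ± 0.14 (SE), and neither passed in limma (adjusted p = 0.0874 and 0.207). Pcolce, an enhancer of propeptide removal, differed by 0.31 ± 0.09. Of 17 genes of chain modification and folding, 16 lay above the median signal and 2 (11.8%) did not overlap, a share near the 10.6% of all genes and below the 17.3% of brighter genes. These were P3h2, a prolyl hydroxylase that acts on type IV collagen (-0.46 ± 0.10, adjusted p = 0.123 in limma), and P4ha3 (0.31 ± 0.14, adjusted p = 0.403).

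The small proteoglycans that bind collagen fibrils separated in 6 of 9 genes (66.7%), beside 10.6% of all genes and 17.3% of those above the median signal. Of the 6, 5 were higher (beside 5.17%) and 1 lower (beside 5.39%) in numbers 1 and 2, and 0 of 9 passed in limma. Among 12291 genes above the median signal, 1038 were apart as higher and 1092 as lower. Decorin (Dcn) had 12.71, 12.70, 13.36 and 12.81 in numbers 1 and 2, against 12.21, 11.92, 12.04 and 12.10 in numbers 3 and 4. Lumican (Lum) had 9.16, 9.59, 10.30 and 9.44 in numbers 1 and 2, against 8.75, 8.57, 8.60 and 8.79 in numbers 3 and 4. Control 1 was the highest array in both, and the numbers stayed apart without it. The differences were 0.83 ± 0.16 and 0.94 ± 0.22 (SE; adjusted p = 0.0809 and 0.131 in limma). Osteoglycin (Ogn) differed by 0.52 ± 0.11, and Prelp, the one that was lower, by -0.40 ± 0.09. Among 15 genes of breakdown and its inhibitors, 3 (20%) did not overlap, beside 10.6% of all genes and 17.3% of those above the median signal, among them Timp2, an inhibitor of matrix metalloproteinases, with 13.06, 13.09, 13.16 and 13.11 in numbers 1 and 2, against 12.75, 12.36, 12.86 and 12.71 in numbers 3 and 4 (0.43 ± 0.11). Of 9 collagen receptors, Ddr1 (0.32 ± 0.11) and Itga1 (0.21 ± 0.10) did not overlap (22.2%, beside the same shares).

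Marker lists of cell types were read by number beside these genes, where 0.753% of all genes passed in limma and 10.6% did not overlap. Of 5 smooth muscle markers, all above the median of all genes, 1 passed and 4 did not overlap, and their mean was 11.1 to 11.6 in numbers 1 and 2, against 10.7 to 10.9 in numbers 3 and 4. The one that passed was Myh11, a smooth muscle myosin (0.64 ± 0.10, adjusted p = 0.0499), while Des, a muscle intermediate filament gene, differed by 0.06 ± 0.16. Of 6 mesenchyme markers, 5 were above the median, 0 passed, and Tcf21 (0.49 ± 0.11) and Meox2 (0.38 ± 0.09) did not overlap. The mesenchyme mean was 9.73 to 10.1 in numbers 1 and 2, against 9.68 to 9.83 in numbers 3 and 4, and overlapped. Of 5 epithelial markers, all above the median, 0 passed, 2 did not overlap, and their mean overlapped, with 10.98 to 11.30 in numbers 1 and 2, against 11.28 to 11.46 in numbers 3 and 4. Their differences went both ways, with Cldn6 at -0.67 ± 0.17 and Epcam at -0.33 ± 0.10, but Krt8 at 0.07 ± 0.09 and Krt18 at 0.11 ± 0.09. The 5 endothelial and 5 mesothelial markers had medians of 0.05 and -0.003, with 0 passing and 0 without overlap in either list. Of the 5 lung markers, 3 did not overlap and 2 passed as lower in numbers 1 and 2: Sftpc, the surfactant protein C gene (-1.33 ± 0.19, adjusted p = 0.0348 in limma), and Nkx2-1, the transcription factor of lung epithelium (-0.76 ± 0.11, adjusted p = 0.0345). Of the others, Foxf1 differed by -0.36 ± 0.09, Tbx5 by -0.10 ± 0.12 and Tbx4 by 0.06 ± 0.10. Sftpc had 15.98 to 15.99 in numbers 3 and 4, close to the highest value of 15.999, which limits its difference and its spread there. The part of a changed make-up of the lobe in the collagen differences by number was not tested.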

How the data were processed

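Arrays were hybridized with Cy3-labelled RNA, scanned and quantified with Mapix by the authors. They corrected background by normexp on negative control spots and quantile-normalized the logarithms in limma. The deposited values are these log2 signals for 62976 spots on each of 8 arrays; base 2 was read from the highest value of 15.999. The median of each array was 4.43, and detection per spot was not analysed here. Spots were named from the platform annotation (43941 with a symbol), updated through RefSeq accessions (1424 changed), and the brightest spot stood for each of 24583 genes. Because quantile normalization gives arrays 1 distribution, differences are relative to all genes.

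Groups and numbers came from the array titles. Differences were fitted by lmFit and eBayes (limma 3.58.1, R 4.3.3), two-sided, over all genes, with Benjamini-Hochberg adjustment and a threshold of 0.05, by label unpaired and by number with the label as covariate. The members and lists, and the split by number, were chosen with earlier results of these data known. By rule every collagen could be named, values per array went to up to 4 members per class and to 6 by label with the smallest p, or without overlap, and up to 4 genes were named per other list. The fits were tested on simulated data. Alternatives were the mean of spots, a filter on dim genes, unchanged symbols, an intensity trend, array weights, an ordinary t-test without moderation, blocks, no covariate and each array left out.

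Same-numbered arrays deviated together from their group means, at correlations of 0.109, 0.146, 0.124 and 0.117 across genes for numbers 1 to 4, all above the limit of 0.1. This pairing comes from the data, and the titles do not say what a number stands for. The correlations above include the split by number itself. With the label and that split in the fit, the random replicate block had a correlation of -0.0106.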

Additional observations from a re-analysis of the deposited data

Results flagged for a closer look

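Among 88 sets of 4 arrays (44 collagens in each labelled group), 2 held an array far from the other 3 by Dixon's criterion, where chance gives about 1 in 20. For Col4a5, a chain of type IV collagen, control 1 had 8.951 and the other arrays labelled control 9.174 to 9.200, a gap of 0.896 of the range. For Col9a2, a chain of type IX collagen, control 2 had 8.281 and the others 7.895 to 7.952, a gap of 0.853 of the range. By the interaction test in limma 0 of 44 collagens passed, beside 0% of all genes. With so few arrays, this does not show that the differences by number were alike in both labels.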

How the results depend on the processing

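Between the labelled groups 0 of 44 collagens passed under every adjusted setting tried, including the replicate block, which used the pairing by number and gave 0. With that block the interval of Col9a1 by label also left 0 out (-0.32, interval -0.60 to -0.04), with adjusted p = 0.9991 in limma. Unadjusted, limma and the ordinary t-test gave 1 each. By number the count of 0 became 7 among genes above the median signal, 10 with the intensity trend, 1 with the ordinary t-test after adjustment, 14 with it before adjustment and 12 with limma's unadjusted p. It was 0 with the random replicate block and with each array left out. The 18 gained calls, over 11 genes, kept the direction of the first fit; of 692 differences by number 26 changed sign and of 648 by label 63, none of them past the threshold. For the 75 other genes of collagen assembly and breakdown, the count of 1 became 2 with array weights, 9 above the median signal, 12 with the trend, 4 and 24 with the t-test after and before adjustment, 2 with no covariate and 22 unadjusted, and 0 to 1 with an array left out (0 without control 3). By label, the 1 collagen without overlap became 0 with the mean of spots and above the median signal, and 1 to 3 with an array left out (2 without experimental 3, control 1 or control 4, 3 without control 3), where the share of all genes was 3.92% to 4.43% in place of 1.9%. By number, the 11 became 8 with the mean of spots and 11 to 16 with an array left out, where the share of all genes was 13.5% to 15.5% in place of 10.6%. Fewer arrays in a group make non-overlap easier; the cause of the other shifts was not tested. Signals near the floor of 2.00 scatter and those near 15.999 have no room above them, which limits the 12 dim collagens, Col1a2 and, among the markers, Sftpc.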
